A study of Homo sapiens with 40 samples.

Results

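The MHC class I antigen presentation genes HLA-B, HLA-C, HLA-E, HLA-F, B2M, TAP1, TAP2, TAPBP and NLRC5 were followed across all groups of the study, 9 genes out of 39507. They were found by name: every row of the count table whose name equals the gene symbol, or the symbol followed by a low line and digits, was taken, and the rows of a gene were summed. The numbered rows were read as alternate-haplotype copies of a gene from their names only, which nothing else states, and 51 of the 44584 rows of the table belonged to these 9 genes. BT474, a HER2-positive breast ductal carcinoma cell line that responds to trastuzumab, was compared with BT474R, a resistant line that is 1 clone derived from BT474 by culture in trastuzumab. All cultures of both lines were serum starved, and RNA was taken after starvation (T0) or after 1 h, 12 h or 24 h with EGF, a ligand of EGFR, with heregulin (HRG), a ligand of HER3, or with water as the vehicle. Each of the 20 groups had 2 libraries, 40 in all, and nothing states that the cultures were grown apart, so that p-values measure only the spread between these libraries.

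A library held between 16794594 and 33387936 counts. Levels are given as CPM, the counts of a gene relative to the TMM-scaled total of its library. The detection floor was set at 3 counts per library and covers counting error only. Calls rest on the quasi-likelihood F test of edgeR: a gene was called when its p, adjusted by the Benjamini-Hochberg method across the whole gene table, was below 0.05. Epithelial identity was checked on 8 luminal markers, whose summed level was 11087 to 14809 CPM in BT474 and 10341 to 17020 CPM in BT474R. GATA3 stood apart among them, at 306 to 548 CPM in BT474 libraries and 10.5 to 55.2 CPM in BT474R libraries. Of 6 leukocyte markers, 4 stayed under 1 CPM in every library, while the summed list lay at 1.75 to 4.51 CPM in BT474 and 1.34 to 5.47 CPM in BT474R, mostly from CD68 and LYZ. The stroma and endothelium markers summed to 75.5 to 106 CPM in BT474 and 177 to 296 CPM in BT474R, nearly all of it COL1A1, with 4 of 6 genes under 1 CPM in every library. The part of GATA3 and COL1A1, which moved with the line, in the differences between lines was not tested. The median over genes of the chi-square between duplicates was above the 0.455 of pure sampling noise in all 20 groups, and was highest, at 3.27, in HRG-BT474R at 24 h.

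Class I molecules show peptides from inside the cell to CD8 T cells and to natural killer cells. HLA-B and HLA-C are classical heavy chains, HLA-E and HLA-F are nonclassical ones, and each heavy chain pairs with the light chain beta-2 microglobulin, the product of B2M. TAP1 and TAP2 form the transporter that brings peptides into the endoplasmic reticulum, TAPBP encodes tapasin, which holds the empty heavy chain at the transporter, and NLRC5 is the transactivator that drives transcription of class I genes. Loss of these molecules is a known way for tumor cells to escape T cells, and interferons are their best known inducers, in part through IRF1.

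In GENCODE v44 on GRCh38, HLA-F (chr6:29722775-29738528), HLA-E (chr6:30489509-30494194), HLA-C (chr6:31268749-31272130), HLA-B (chr6:31353872-31367067), TAP2 (chr6:32821833-32838739), TAP1 (chr6:32845209-32853816) and TAPBP (chr6:33299694-33314284) lie in the MHC region, whereas B2M (chr15:44711358-44718851) and NLRC5 (chr16:56989485-57083531) do not. The strand setting of the counting was not stated, and exons on the opposite strand overlap some members: PSMB8-AS1 shares 14.2% of the exon bases of TAP1, HLA-F-AS1 shares 12.4% of those of HLA-F, and an unnamed gene model shares 21.0% of those of TAPBP. Another opposite-strand gene model shares 14.5% of the exon bases of HLA-B. On the same strand, DHFRP2 shares 30.7% of the exon bases of HLA-B, and an unnamed gene model shares 19.5% of those of TAP2. Reads of such overlapping genes cannot be told apart here from reads of the member. RefSeq promoters, 250 bases before to 50 after the start on GRCh38.p14, matched 7 of the 9 members. Those of HLA-B (chr6:31357130-31357429, minus strand), HLA-C (chr6:31272043-31272342, minus strand), B2M (chr15:44711267-44711566, plus strand), TAP1 (chr6:32853655-32853954, minus strand) and TAPBP (chr6:33314029-33314328, minus strand) are shown because they cover the heavy chain, light chain, transporter and tapasin roles. The promoter of PSMB9 (chr6:32853942-32854241, plus strand), which encodes an immunoproteasome subunit, is shown because it faces the TAP1 promoter, with 488 bases between the start sites. Capitals mark matches on either strand to the core of the interferon-stimulated response element (ISRE), AANNGAAA, and to the NF-kB consensus.
HLA-B: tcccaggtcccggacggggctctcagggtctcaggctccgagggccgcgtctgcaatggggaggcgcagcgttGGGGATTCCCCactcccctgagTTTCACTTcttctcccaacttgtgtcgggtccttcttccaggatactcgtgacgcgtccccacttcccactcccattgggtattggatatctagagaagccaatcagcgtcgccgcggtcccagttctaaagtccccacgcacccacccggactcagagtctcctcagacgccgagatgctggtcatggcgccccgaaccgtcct
HLA-C: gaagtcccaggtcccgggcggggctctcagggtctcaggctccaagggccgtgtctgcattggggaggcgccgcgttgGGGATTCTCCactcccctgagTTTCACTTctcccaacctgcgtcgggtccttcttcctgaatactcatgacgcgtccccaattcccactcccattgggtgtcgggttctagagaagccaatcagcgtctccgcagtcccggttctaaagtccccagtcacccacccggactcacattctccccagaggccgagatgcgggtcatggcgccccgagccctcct
B2M: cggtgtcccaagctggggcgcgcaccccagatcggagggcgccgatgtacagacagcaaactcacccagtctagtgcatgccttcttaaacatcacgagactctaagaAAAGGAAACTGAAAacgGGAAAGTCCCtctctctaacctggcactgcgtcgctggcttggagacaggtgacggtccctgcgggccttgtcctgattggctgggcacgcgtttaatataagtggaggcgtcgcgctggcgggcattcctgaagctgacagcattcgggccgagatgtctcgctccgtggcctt
TAP1: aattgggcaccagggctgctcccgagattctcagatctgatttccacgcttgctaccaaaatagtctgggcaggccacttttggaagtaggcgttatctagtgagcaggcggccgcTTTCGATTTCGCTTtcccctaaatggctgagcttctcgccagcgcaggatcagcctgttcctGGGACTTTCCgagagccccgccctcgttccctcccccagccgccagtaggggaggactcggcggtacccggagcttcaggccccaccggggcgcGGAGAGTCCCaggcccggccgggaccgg
TAPBP: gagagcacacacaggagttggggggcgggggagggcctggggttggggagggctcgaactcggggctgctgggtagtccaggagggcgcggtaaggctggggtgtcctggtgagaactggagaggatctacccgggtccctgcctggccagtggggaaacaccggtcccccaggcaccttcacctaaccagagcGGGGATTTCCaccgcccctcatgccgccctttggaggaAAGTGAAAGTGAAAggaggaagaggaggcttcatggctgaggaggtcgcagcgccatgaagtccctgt
PSMB9: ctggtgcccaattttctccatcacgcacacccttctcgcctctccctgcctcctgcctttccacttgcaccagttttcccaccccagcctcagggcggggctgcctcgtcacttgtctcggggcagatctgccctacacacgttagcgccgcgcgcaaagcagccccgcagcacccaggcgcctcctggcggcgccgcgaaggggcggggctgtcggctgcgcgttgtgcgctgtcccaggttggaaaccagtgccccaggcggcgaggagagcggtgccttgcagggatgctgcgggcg

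All 7 members with a promoter in the table held the ISRE core at 1 or more start sites, against 22.8% of all 35116 promoters. The letters of this core were chosen after the sequences were seen, so that the 2 shares cannot show an enrichment. B2M, TAP1, TAP2 and TAPBP had 2 overlapping matches each, while HLA-B, HLA-C and HLA-F had 1, at -155 to -148, -151 to -144 and -156 to -149 from the start. The second TAP1 start (chr6:32852712-32853011) and PSMB9 had none. An NF-kB match was found in HLA-B, HLA-C, B2M, TAP1 and TAPBP, against 11.3% of all promoters, and the 2 matches of HLA-B overlapped each other but not the ISRE core. The GAS motif TTCNNNGAA, found in 7.66% of promoters, was present only at the second TAP1 start. CCAAT, found in 34.6% of promoters, was absent from TAP2 and TAPBP, and the CRE half-site TGACG, found in 24.6%, was present in HLA-B, HLA-C, B2M and TAP2. The HLA-B and HLA-C promoters were identical at 88.5% of aligned positions. These matches describe letters only, and no binding was measured.

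To set the levels of the genes against each other, CPM was divided by the exon length in GENCODE v44, which need not be the authors' release. The genes had from 1 row (NLRC5) to 8 rows (TAP1 and TAP2), and how reads that map to several places were counted was not stated. The part of read mapping in the order between genes was not tested. At T0 in BT474, HLA-C had the highest value by this measure with 88.9 CPM per kb, followed by B2M with 22.1, TAPBP with 19.7, HLA-E with 13.5, TAP1 with 4.10, HLA-B with 1.78, TAP2 with 1.45, NLRC5 with 0.162 and HLA-F with 0.0831 CPM per kb. BT474R had the order HLA-C (96.3), TAPBP (23.8), HLA-E (12.6), B2M (10.2), TAP1 (2.33), HLA-B (1.52), TAP2 (0.770), NLRC5 (0.0839) and HLA-F (0.0136 CPM per kb). In neither line did the duplicates of neighbors in this order overlap. Thus B2M took the second place in BT474 and the fourth in BT474R, and the 2 classical heavy chains were far apart in each.

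BT474R started with less of the light chain, the transporter and the transactivator than BT474. B2M was at 69.7 and 68.0 CPM in the T0 libraries of BT474 and at 30.3 and 33.5 CPM in those of BT474R. TAP1 was at 20.6 and 18.2 CPM against 11.1 and 11.0 CPM, and TAP2 was at 14.1 and 15.9 CPM against 7.21 and 8.75 CPM. NLRC5 was at 2.34 and 1.67 CPM in BT474 against 1.06 and 1.02 CPM in BT474R. For these 4 genes, the differences in log2 were -1.10 ± 0.07 (SE, n = 2 per line, edgeR adjusted p = 9.0e-16) for B2M, -0.82 ± 0.10 for TAP1, -0.89 ± 0.12 for TAP2 and -0.97 ± 0.27 for NLRC5. TAPBP went the other way, from 128 and 134 CPM in BT474 to 156 and 159 CPM in BT474R (log2 difference 0.27 ± 0.05), and HLA-C was higher by a log2 of 0.11 ± 0.04. HLA-B (-0.22 ± 0.13) and HLA-E (-0.10 ± 0.07) were not called.

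HLA-F was near the limit of detection in BT474R, with 2 counts over the T0 libraries against 17 in BT474, a BT474R to BT474 ratio of 0.142 (95% counting interval 0.0159 to 0.596). In all, 2 members were higher and 5 lower in BT474R, 7 of 9 called, where 48.5% of the 22706 genes tested were called, 25% higher and 23.5% lower. The median log2 difference was -0.82 over the members and -0.02 over all genes. Since RNA was taken from whole cultures, fewer cells with a transcript and less of it per cell cannot be told apart, and the lines also differ in culture history. Without the T0 replicate 1 of BT474, NLRC5 (-0.68) and HLA-F (-2.39) were no longer called, HLA-F was also lost without the T0 replicate 2 of BT474R (-1.58) and stood at -6.20 without replicate 1 of BT474R, and HLA-C was lost without the T0 replicate 2 of BT474 (0.10) or the T0 replicate 1 of BT474R (0.10).

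**Figure D1:**
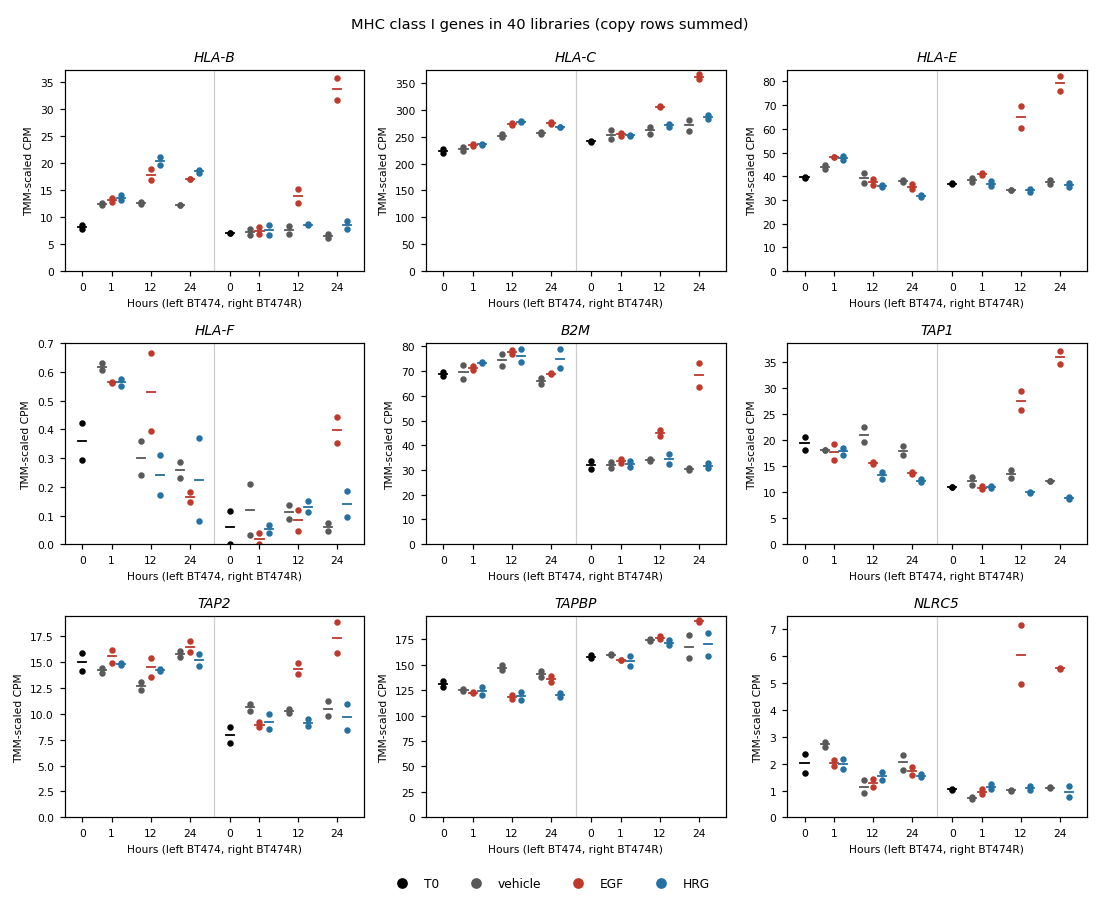
Level of each MHC class I gene in TMM-scaled CPM (y axis, from 0, a different scale in each panel) by hours of treatment (x axis, BT474 left and BT474R right of the gray line), with 1 point per library and a bar at the mean of the 2 libraries. In BT474R the EGF libraries at 24 h lie above the vehicle libraries for all 9 genes, at 35.8 and 31.8 against 6.16 and 6.92 CPM for HLA-B.

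In EGF-BT474R the class I genes were called upward at 12 h and 24 h but not at 1 h. At 1 h none of the 9 members was called by edgeR, none had an unadjusted p below the threshold and DESeq2 called 0 of the 8 it tested, where 0.443% of 22366 genes were called. By 12 h, 7 members had risen and 0 had fallen (12.8% of all genes called, 7.16% upward), with a median log2 fold change of 0.48 over the members against -0.02 over all genes. At 24 h all 9 members were called upward (18.3% of all genes called, 10.5% upward), and the median was 1.16 against -0.01. At that time the EGF libraries lay above both vehicle libraries for 9 of 9 members, which held for 27.5% of all genes. The leukocyte markers moved with these groups: their sum was 3.58 to 3.62 CPM in EGF-BT474R against 2.18 to 2.24 CPM in vehicle at 12 h, and 4.96 to 5.47 CPM against 2.19 to 2.76 CPM at 24 h, with 3.04 to 3.29 CPM in HRG-BT474R at 24 h. PTPRC and CD3E, which define leukocytes and T cells, stayed at or below 0.103 and 0.0371 CPM in every BT474R library, and the part of the other markers in the result was not tested.

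Among the classical heavy chains, HLA-B rose the most. Its level was 8.45 and 6.92 CPM in vehicle and 15.2 and 12.5 CPM in EGF libraries at 12 h, a log2 fold change of 0.86 ± 0.14 (SE, n = 2 per group, edgeR adjusted p = 0.00021). At 24 h it was 6.16 and 6.92 CPM in vehicle and 35.8 and 31.8 CPM in EGF libraries, a fold change of 5.13 and a log2 of 2.36 ± 0.14 (adjusted p = 1.2e-10). The libraries were thus apart at both times, and the later gap was the wider: the EGF effect on HLA-B grew by a log2 of 1.503 ± 0.20 between 12 h and 24 h (edgeR adjusted p = 0.00088, test of the difference). HLA-C, already abundant, moved from 255 and 269 CPM to 307 and 305 CPM at 12 h and from 261 and 282 CPM to 357 and 367 CPM at 24 h, or by a log2 of 0.22 ± 0.05 and 0.40 ± 0.05. Both calls held for HLA-C, but its fold change of 1.32 at 24 h was small beside that of HLA-B.

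The nonclassical HLA-E, whose product is the ligand of the NKG2A receptor of natural killer cells, was at 34.1 and 34.3 CPM in vehicle and 69.8 and 60.2 CPM in EGF libraries at 12 h. At 24 h it was at 38.3 and 36.7 CPM in vehicle and 82.3 and 76.1 CPM in EGF libraries. The log2 fold changes of HLA-E, 0.92 ± 0.07 and 1.06 ± 0.07, were close to each other, and the growth between the times (0.14 ± 0.10) was not called. HLA-F was counted 6 times in the vehicle and 4 times in the EGF libraries at 12 h, and 3 times in the vehicle and 19 times in the EGF libraries at 24 h. The ratio of HLA-F at 24 h was 6.36 with a 95% counting interval of 1.87 to 33.6, on a vehicle group at the detection floor. Its call at 24 h (log2 2.56 ± 0.83) was lost without any of the 4 libraries compared, with log2 fold changes between 2.30 and 2.95, and under 3 other alternatives.

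The light chain rose at both times. B2M was at 33.5 and 34.6 CPM in vehicle and 46.4 and 43.6 CPM in EGF libraries at 12 h (log2 0.40 ± 0.08), and at 30.0 and 30.9 CPM in vehicle and 73.2 and 63.7 CPM in EGF libraries at 24 h (1.16 ± 0.08). As for HLA-B, the effect on B2M grew from 12 h to 24 h, by a log2 of 0.76 ± 0.11 (edgeR adjusted p = 0.0022). These 2 members were the called ones among 9 in that test, where 0.215% of all genes were called, 0.112% upward. The mean level of B2M in EGF-BT474R at 24 h, 68.5 CPM, reached the range of the BT474 libraries (64.8 to 78.8 CPM over all groups).

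Of the transporter subunits, TAP1 responded more than TAP2. TAP1 was at 12.8 and 14.4 CPM in vehicle and 29.6 and 25.7 CPM in EGF libraries at 12 h, and at 12.2 CPM in both vehicle libraries and 37.3 and 34.7 CPM in EGF libraries at 24 h. Its log2 fold changes were 1.02 ± 0.09 and 1.55 ± 0.09 (edgeR adjusted p = 7.1e-08 and 1.2e-10), and the EGF libraries of TAP1 at 24 h exceeded every BT474 library, the highest of which had 22.5 CPM. TAP2 was at 10.05 and 10.4 CPM in vehicle and 14.9 and 13.8 CPM in EGF libraries at 12 h, and at 11.2 and 9.73 CPM against 18.8 and 15.8 CPM at 24 h, or log2 fold changes of 0.48 ± 0.13 and 0.71 ± 0.12. The TAP2 call at 12 h was lost without either vehicle library (0.47 and 0.50) or without EGF replicate 1 (0.42), and the call at 24 h held under all alternatives.

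Tapasin changed least. TAPBP was at 173 and 175 CPM in vehicle and 178 and 175 CPM in EGF libraries at 12 h (log2 0.01 ± 0.06), where the groups overlapped. At 24 h TAPBP was at 157 and 179 CPM in vehicle and 193 and 192 CPM in EGF libraries, a log2 of 0.19 ± 0.06 (edgeR adjusted p = 0.032) that fell to 0.09 without vehicle replicate 1 and was not called without it, nor without either EGF library (0.18 in both), after thinning to equal depth (0.17) or with only the libraries compared (0.18).

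NLRC5, the transactivator, had the largest fold change at 12 h. It was at 0.978 and 1.03 CPM in vehicle and 7.15 and 4.95 CPM in EGF libraries, a fold change of 5.98 and a log2 of 2.58 ± 0.22 (edgeR adjusted p = 4.0e-08). At 24 h NLRC5 was at 1.10 and 1.12 CPM in vehicle and 5.53 and 5.55 CPM in EGF libraries (2.30 ± 0.22), so that its effect at 24 h did not differ from that at 12 h by more than the error (-0.28 ± 0.33). In both EGF groups NLRC5 lay above all 20 BT474 libraries, which had 0.900 to 2.82 CPM.

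**Figure D2:**
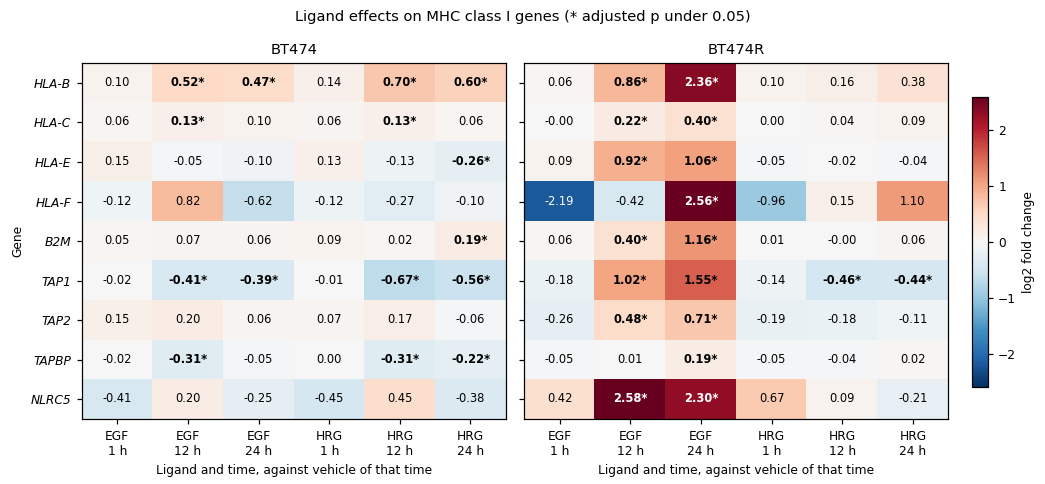
Log2 fold change of each gene (rows) in each ligand group against the vehicle of the same time (columns), with BT474 on the left and BT474R on the right. Color runs from blue (lower) to red (higher), and a star marks an edgeR adjusted p below 0.05. Stars fill the EGF columns of BT474R at 12 h (7 of 9) and 24 h (9 of 9), and the HLA-F values of BT474R rest on few counts.

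In BT474 itself, EGF moved fewer members and in both directions. At 12 h, 4 members were called, 2 up and 2 down (17.5% of 23178 genes called, 10.3% upward and 7.17% downward), and at 24 h 2 were called, 1 up and 1 down (17.4% called, 9.93% upward and 7.52% downward). HLA-B was at 12.7 and 12.4 CPM in vehicle and 16.9 and 18.9 CPM in EGF libraries at 12 h, and at 12.3 and 12.2 CPM against 17.0 CPM in both EGF libraries at 24 h, or log2 fold changes of 0.52 ± 0.09 and 0.47 ± 0.09. TAP1 went down, from 19.6 and 22.5 CPM to 15.9 and 15.5 CPM at 12 h (-0.41 ± 0.09) and from 18.8 and 17.2 CPM to 13.6 and 13.9 CPM at 24 h (-0.39 ± 0.10). TAPBP was lower at 12 h only by call, from 144 and 150 CPM to 120 and 116 CPM (-0.31 ± 0.04), and the EGF effect on TAPBP at 24 h was higher than at 12 h by a log2 of 0.26 ± 0.06 (1 of 9 members called, where 0.578% of genes were, 0.267% upward), a call lost without 7 of the 8 libraries in turn, at 0.23 to 0.29. HLA-C rose by a log2 of 0.13 ± 0.04 at 12 h. The TAP1 calls were lost without vehicle replicate 2 at 12 h (-0.31) and without vehicle replicate 1 at 24 h (-0.33), and the HLA-C call was lost without vehicle replicate 2 (0.12) or either EGF library (0.13 in both).

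The difference between the lines in the EGF effect was tested as an interaction over all 40 libraries. At 12 h, 4 of 9 members had a larger EGF effect in BT474R and 0 a smaller one (1.88% of 22706 genes called, 0.982% upward). They were NLRC5 (difference in log2 effect 2.40 ± 0.36), TAP1 (1.45 ± 0.13), HLA-E (0.99 ± 0.09) and TAPBP (0.34 ± 0.08). TAPBP fell in BT474 and was near 0 in BT474R at this time, and its difference was lost without 5 of the 8 libraries in turn, at 0.27 to 0.32. At 24 h the count was 7 larger and 0 smaller (3.97% called, 2.15% upward), with NLRC5 (2.56 ± 0.32), TAP1 (1.96 ± 0.13), HLA-B (1.90 ± 0.16), HLA-E (1.17 ± 0.09), B2M (1.10 ± 0.10), TAP2 (0.65 ± 0.15) and HLA-C (0.31 ± 0.06). The TAP2 difference was not called without EGF replicate 1 of BT474R (0.53). TAPBP (0.25 ± 0.08) and HLA-F (3.19 ± 1.04) were not called at 24 h, and at 1 h none of the 9 members was called (0.128% of genes called), with 2 at an unadjusted p below the threshold and 0 by DESeq2.

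**Figure D3:**
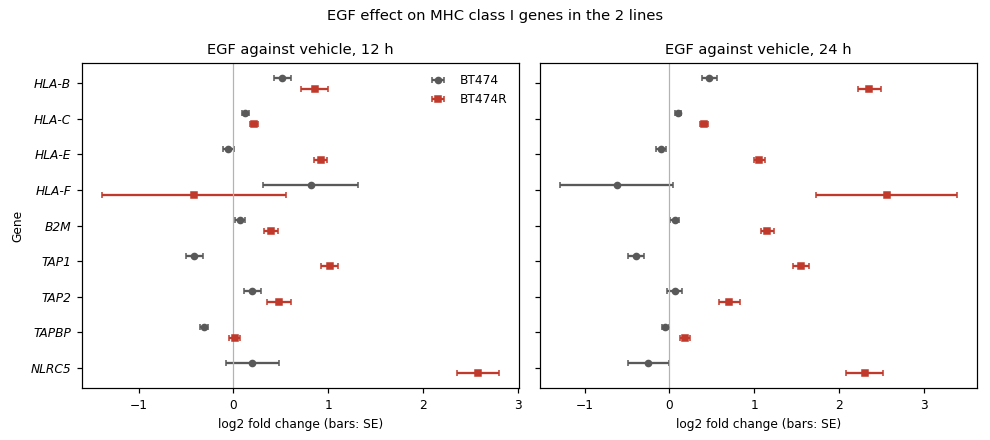
Log2 fold change of EGF against vehicle (x axis, points with SE bars) for each gene (y axis) in BT474 (gray circles) and BT474R (red squares) at 12 h (left) and 24 h (right). At 24 h TAP1 stands at -0.39 in BT474 and 1.55 in BT474R, and HLA-B is above 0 in both lines.

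No member rose by call in HRG-BT474R. Of 22366 genes tested, 573 rose by call at 12 h and 469 at 24 h, so that 0 of 9 does not set the members apart. At 12 h 1 of 9 members was called, downward (4.47% of genes called, 1.9% downward), and at 24 h likewise 1 (3.07% called, 0.97% downward), in both cases TAP1. TAP1 was at 10.1 and 9.83 CPM in HRG libraries at 12 h and at 8.80 and 9.02 CPM at 24 h, against 12.8 and 14.4 CPM and 12.2 CPM in the vehicle libraries shared with EGF. The log2 fold changes were -0.46 ± 0.10 and -0.44 ± 0.10, and the TAP1 calls were lost without vehicle replicate 2 (-0.38) or HRG replicate 2 (-0.44) at 12 h, without vehicle replicate 1 (-0.45) or HRG replicate 2 (-0.47) at 24 h, and at both times with the plain-name row alone or with only the libraries compared. The other members with more than floor counts had HRG effects between -0.21 (NLRC5) and 0.38 (HLA-B) at 24 h, none called. At 1 h none of the 9 was called (0.161% of genes called), with 1 at an unadjusted p below the threshold and 0 by DESeq2.

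Compared directly, without the vehicle, HRG libraries lay below EGF libraries in BT474R. Of 9 members, 6 were lower in HRG at 12 h (1.41% of genes called, 1.12% downward) and 7 at 24 h (5.41% called, 3.4% downward), and none was higher. HLA-B was at 7.73 and 9.21 CPM in HRG against 35.8 and 31.8 CPM in EGF libraries at 24 h (log2 -1.98 ± 0.13), HLA-E at 35.4 and 37.3 CPM against 82.3 and 76.1 CPM (-1.11 ± 0.07), B2M at 32.7 and 30.7 CPM against 73.2 and 63.7 CPM (-1.09 ± 0.08), TAP1 by -1.996 ± 0.10 and NLRC5 by -2.52 ± 0.23. When only the 4 libraries compared were fitted, 0 of the 9 were called at 24 h, with log2 values close to these (HLA-B at -1.99), and 0 genes in all. Without HRG replicate 2 or EGF replicate 1, 3 members were called at 12 h, down from 6. In BT474 the ligands differed less: 0 of 9 members were called at 12 h by edgeR (2.42% of genes called, 3 members at an unadjusted p below the threshold, 0 by DESeq2), and at 24 h only TAPBP, by -0.18 ± 0.04 (0.699% called, 0.427% downward), which was lost under 4 alternatives and without either HRG library or EGF replicate 1.

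In BT474, HRG also moved members in both directions. At 12 h 2 rose and 2 fell (27.4% of genes called, 14.5% upward and 12.9% downward), and at 24 h 2 rose and 3 fell (25.6% called, 13.6% upward and 12% downward). HLA-B was at 19.7 and 21.2 CPM in HRG libraries at 12 h and at 18.8 and 18.3 CPM at 24 h, above the vehicle libraries given above (log2 0.70 ± 0.08 and 0.60 ± 0.09). TAP1 was at 12.6 and 13.9 CPM at 12 h and at 12.5 and 11.9 CPM at 24 h, below them (-0.67 ± 0.09 and -0.56 ± 0.10). TAPBP fell at both times (-0.31 ± 0.04 and -0.22 ± 0.04), HLA-C rose at 12 h (0.13 ± 0.04), HLA-E fell at 24 h (-0.26 ± 0.06) and B2M rose at 24 h (0.19 ± 0.05, lost without vehicle replicate 2 at 0.17 and without HRG replicate 1 at 0.12). At 1 h none was called for either ligand (2.59% of genes for EGF and 3.45% for HRG), with 1 member at an unadjusted p below the threshold for each and 0 by DESeq2. Between the lines, the HRG effect differed for 1 member at 12 h (3.68% of genes called, 1.33% upward), TAPBP (0.28 ± 0.08, lost without 6 of the 8 libraries in turn, at 0.23 to 0.28), and for none at 1 h (0.577%) or 24 h (3.24%), with 1 and 2 members at an unadjusted p below the threshold and 0 and 1 by DESeq2.

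Time without ligand moved few members. Between T0 and vehicle at 24 h, HLA-B rose in BT474 from 7.84 and 8.59 CPM to 12.3 and 12.2 CPM (log2 0.58 ± 0.10), and HLA-C by 0.20 ± 0.04, 2 of 9 called (12% of genes, 6.04% upward). The mean of HLA-B in the BT474 vehicle libraries was already 12.4 CPM at 1 h and was 12.5 CPM at 12 h. Vehicle at these earlier times was not tested against T0. In BT474R, HLA-B stayed at 7.10 and 6.98 CPM at T0 and 6.16 and 6.92 CPM at 24 h, with a log2 difference of -0.10 ± 0.16, and HLA-C was the 1 member called (0.17 ± 0.05; 14.8% of genes, 7.37% upward), a call lost without either T0 library (0.17 and 0.15) or vehicle replicate 2 (0.11). Growth of the effect from 12 h to 24 h was called for 0 of 9 members with HRG in BT474 (2.73% of genes called) and in BT474R (0.0313% called), with 2 and 0 members at an unadjusted p below the threshold and 0 by DESeq2 in each.

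Much of the signal of these genes lay in the copy rows. The row with the plain name held 100% of the counts of NLRC5, which has no copy row, but 66.6% of those of HLA-B, 58.1% of HLA-C, 55.8% of B2M, 22.0% of TAP2, 21.6% of TAP1, 11.4% of TAPBP and 3.57% of HLA-E. For TAP1 and TAP2 a numbered row was the largest, TAP1_6 with 49.8% of the counts in BT474 and TAP2_6 with 48.2%. The share of a row overlapped between the lines for all rows but 3, all of HLA-C. The plain row of HLA-C held 58.2% to 61.9% of its counts in BT474 libraries and 54.9% to 58.0% in BT474R libraries, HLA-C_2 held 2.11% to 2.85% and 2.89% to 3.84%, and HLA-C_3 held 7.02% to 9.13% and 10.4% to 12.7%. How reads that map to several places were counted was not stated, so the rows of a gene are not independent measurements of separate alleles.

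The EGF effect of BT474R at 24 h was seen row by row. Among rows with at least 10 vehicle counts, the ratio of EGF to vehicle was 4.20 to 5.72 over 4 rows of HLA-B, 1.95 to 2.62 over 7 rows of HLA-E, 2.24 and 2.25 in the rows of B2M, 1.78 to 4.60 over 8 rows of TAP1, and 1.12 to 1.18 over 5 rows of TAPBP, each with a 95% counting interval above 1. In 7 rows of HLA-C it was 1.14 to 1.38, with 5 intervals above 1, and in 8 rows of TAP2 it was 0.967 to 2.22, with 4 intervals above 1. These intervals leave out the spread between libraries, and all rows of a gene rest on the same libraries. With the plain-name rows alone, edgeR called 7 members in EGF-BT474R at 24 h in place of 9 and 6 in place of 7 at 12 h. HLA-F and TAPBP were the ones not called at 24 h, and TAP2 at 12 h.

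**Figure D4:**
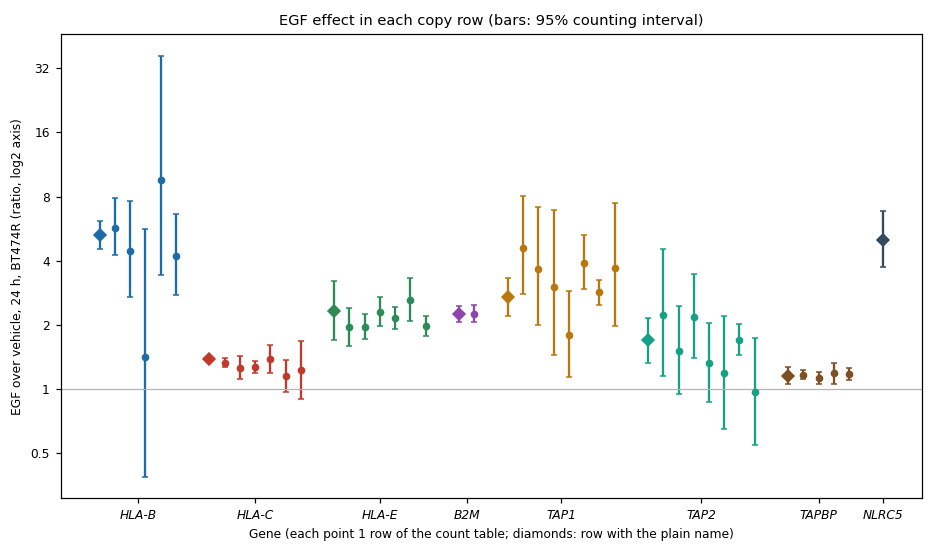
Ratio of EGF to vehicle in BT474R at 24 h (y axis, log2 scale) for each row of the count table, grouped by gene (x axis), with 95% counting intervals over the summed libraries. Diamonds are the rows with the plain name, the gray line marks a ratio of 1, and HLA-F is left out for its few counts. The HLA-E rows lie between 1.95 and 2.62 and the TAPBP rows between 1.12 and 1.18.

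Genes that work with class I molecules were described by 6 lists of 47 genes. In EGF-BT474R, of 42 that could be tested, 2 were called upward and none downward at 1 h (0.443% of all genes called). The calls were 7 upward and 3 downward at 12 h (12.8% of all genes called, 7.16% upward), and 10 upward and 7 downward at 24 h (18.3% called, 10.5% upward). Of 14 regulators, IRF1 and IRF9 were called upward at 1 h. The level of IRF1, a transcription factor of interferon responses, was 2.02 and 3.69 CPM in vehicle and 15.5 and 11.4 CPM in EGF libraries at 1 h (log2 2.18 ± 0.22). At 12 h IRF1 was at 1.47 and 2.34 CPM against 19.8 and 14.2 CPM (3.13 ± 0.24), and at 24 h at 1.51 and 2.38 CPM against 15.6 and 14.2 CPM (2.94 ± 0.24). IRF9, a transcription factor of interferon signaling, was at 13.2 and 12.4 CPM in vehicle and 17.5 and 19.3 CPM in EGF libraries at 1 h (0.52 ± 0.11, lost without any of these libraries) and changed by a log2 of 1.77 ± 0.10 at 12 h and 1.43 ± 0.10 at 24 h. RFX5, a subunit of the factor that binds class I and class II promoters with NLRC5 or CIITA, was lower at 12 h (-0.47 ± 0.06) and 24 h (-0.37 ± 0.06). RFX5 was also lower in HRG-BT474R at 12 h (-0.38 ± 0.06), in EGF-BT474 (-0.44 ± 0.06 and -0.40 ± 0.06) and in HRG-BT474 (-0.79 ± 0.06 and -0.64 ± 0.06). In BT474 with EGF, 0 regulators were called upward and 3 downward at 12 h and at 24 h. Of all genes, 10.3% were called upward and 7.17% downward at 12 h, and 9.93% and 7.52% at 24 h. At these shares, 0 upward of 14 does not set the list apart. STAT2 (-0.54 ± 0.05 and -0.43 ± 0.05) and RFX5 were among those called downward at both times. IRF1 was at 5.26 and 5.12 CPM in vehicle and 5.34 and 4.91 CPM in EGF libraries of BT474 at 12 h. The difference between the lines in the EGF effect was called for IRF1 at 1 h (2.17, where 0.128% of all genes were called), 12 h (3.15 ± 0.29) and 24 h (3.11 ± 0.30).

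Among the genes of peptide supply, the immunoproteasome subunit PSMB9 had the largest ratio at 12 h and 24 h, followed at 24 h by PSMB8. PSMB10, also an immunoproteasome subunit, was not called at either time. Its means in BT474R were 4.43 CPM in vehicle and 5.50 CPM in EGF libraries at 12 h, and 4.13 and 4.87 CPM at 24 h. PSMB9 was counted 5 times in the vehicle and 77 times in the EGF libraries of BT474R at 12 h, a ratio of 17.1 (95% counting interval 7.02 to 54.2), and 2 and 110 times at 24 h, a ratio of 55.2 (14.9 to 462). PSMB8, another immunoproteasome subunit, was counted 2 times and 20 times at 24 h, a ratio of 10.04 (2.44 to 88.6). Its call was lost in DESeq2, with the replicate block within each time point, after thinning to equal depth and without vehicle replicate 1. Only 9 alternatives gave a value for PSMB8 here, against 14 for CALR, and 4 of the 9 lost the call. The mean of PSMB8 was 0.417 CPM in this EGF group and at most 0.0596 CPM in every other BT474R group. ERAP2, an aminopeptidase that trims peptides for class I, was at 0.756 and 1.45 CPM in vehicle and 3.02 and 2.69 CPM in EGF libraries at 12 h (log2 1.33 ± 0.29, lost without vehicle replicate 1) and at 2.04 and 1.82 CPM against 4.83 and 4.22 CPM at 24 h (1.21 ± 0.25). Thus 2 of 7 genes of this list rose at 12 h and 3 at 24 h, PSMB8 included (7.16% and 10.5% of all genes rose). None of the 3 standard proteasome subunits PSMB5, PSMB6 and PSMB7 was called by edgeR at either time, a list too short to set against those shares. At T0 all 7 genes of the list were lower in BT474R (23.5% of genes lower), with a median log2 of -1.31, and PSMB8 was counted once in BT474R against 128 times in BT474, a BT474 to BT474R ratio of 106 (95% counting interval 18.8 to 4234). PSME2 (-0.18 ± 0.06) was the weakest of them, and its call was lost without any of the 4 libraries.

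Of 4 folding and editing genes, CALR, the chaperone calreticulin, fell in EGF-BT474R at 12 h (-0.31 ± 0.04) and 24 h (-0.41 ± 0.04), from 769 and 793 CPM to 601 and 583 CPM at the later time, and PDIA3 was lower at 24 h (-0.15 ± 0.05, lost without vehicle replicate 2 or either EGF library). CALR was also lower in HRG-BT474R at 24 h (-0.21 ± 0.04, lost with only the libraries compared). Of 8 class I-like genes tested in EGF-BT474R, 2 rose and 1 fell at 12 h (12.8% of all genes called, 7.16% upward). At 24 h 3 rose and 1 fell (18.3% called, 10.5% upward). MICA and MICB, stress ligands of the NKG2D receptor, rose at both times, and the MICB call at 12 h was lost with the plain-name rows alone. MICB was at 0.982 and 1.45 CPM in vehicle and 5.88 and 5.99 CPM in EGF libraries at 24 h (2.29 ± 0.22), and at 3.33 and 3.69 CPM in HRG libraries (1.55 ± 0.24, lost with the plain-name rows alone and with only the libraries compared). MICA was at 11.1 and 14.5 CPM in vehicle and 23.8 and 25.8 CPM in EGF libraries (0.95 ± 0.11). MICA was also called upward in EGF-BT474 at 24 h (0.57), HRG-BT474R at 12 h (0.50) and HRG-BT474 at 12 h and 24 h (0.31 at both). These HRG calls were all lost with the plain-name rows alone. Between the lines, the EGF effect at 24 h was called for MICB (1.89, lost with the plain-name rows alone) but not for MICA (3.97% of all genes called, 2.15% upward). FCGRT, the neonatal Fc receptor, fell by 0.47 on the log2 scale at 24 h, and ULBP2 rose (1.23 ± 0.31, lost without vehicle replicate 1 or EGF replicate 2).

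Of 6 class II genes tested in EGF-BT474R, 0 rose at 12 h or 24 h, where 7.16% and 10.5% of all genes did, so that 0 of 6 does not set the list apart. None fell at 12 h, and HLA-DQB1 (-0.77 ± 0.13) and HLA-DRB1 (3 counts in EGF against 17 in vehicle libraries, ratio 0.177, 95% counting interval 0.0333 to 0.613, lost without any of the 4 libraries) fell at 24 h. The fall of HLA-DQB1 at 24 h was not particular to EGF-BT474R. It was also called in HRG-BT474 (-1.03), and in EGF-BT474 (-0.66) and HRG-BT474R (-0.63), the latter calls both lost with the plain-name rows alone. CIITA, the class II transactivator and relative of NLRC5, was at 2.12 and 1.31 CPM in vehicle and 2.11 and 2.09 CPM in EGF libraries at 24 h, and CD74, the invariant chain, was at 0 in the vehicle and at 0.0878 and 0.161 CPM in the EGF libraries, 6 counts.

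**Figure D5:**
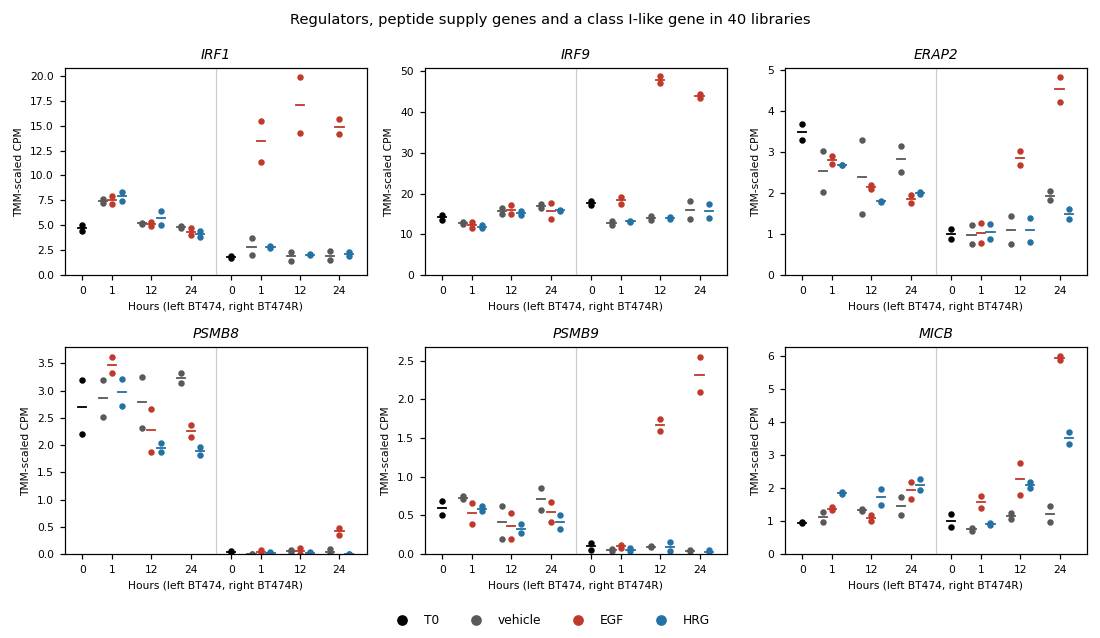
Level in TMM-scaled CPM (y axis, from 0) of the regulators IRF1 and IRF9, the peptide supply genes ERAP2, PSMB8 and PSMB9, and MICB by hours of treatment (x axis, BT474 left and BT474R right of the gray line), with 1 point per library and a bar at the mean. IRF1 reaches 15.5 and 11.4 CPM in EGF-BT474R at 1 h, and PSMB8 is near 0 in all BT474R groups but EGF at 24 h.

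The mean profile of the members over the 20 groups, each member as a z-score of log2 CPM, was compared with 14018 genes of at least 1 CPM. The most alike were IFIT2 (Pearson's r = 0.96), APOL6 (0.92), CEMIP (0.90), PARP10 (0.87), MCTP1 (0.87), ERAP2 (0.86), IRF7 (0.86), GBP2 (0.84), SAP30BP (0.84) and FZD8 (0.83), over 20 groups that share 2 lines and their vehicles, given as a description. IFIT2, APOL6, PARP10, IRF7 and GBP2 are known as interferon-stimulated genes. Among the members, HLA-B and B2M had an r of 0.99 over the 10 groups of BT474R and 0.63 over those of BT474, and HLA-B and TAP1 had 0.89 and -0.83.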

How the data were processed

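RNA of 40 cultures was sequenced after a Kapa mRNA HyperPrep library preparation. The authors deposited raw counts per gene, made with Trim Galore 0.6.6, alignment by Rsubread to GRCh38.p13 and featureCounts of the same package, with FastQC and MultiQC as quality tools, per the labels and the study's methods. The annotation release, strand setting and treatment of multi-mapping reads are not given in the sources used here. From the deposited counts, rows whose name repeats another gene's name with a number (5077 of 44584) were summed into 39507 genes. Genes with at least 1 count in 50% of libraries were tested with edgeR 4.0.16 (TMM, quasi-likelihood F test, R 4.3.3) in 1 fit per line, and in 1 fit of all 40 libraries for T0 and for differences between lines. P-values were adjusted by Benjamini-Hochberg over all genes tested, at 0.05. Library totals were 16794594 to 33387936 counts. The script was tested on simulated data. Intervals at 95% cover counting error only, since reads without molecular identifiers are not independent molecules. The members, the gene lists, the motif letters and the genes named by likeness were chosen with earlier results of these data known, and the ISRE letters after the sequences were seen. Genes named outside the members are those of the lists that passed the test or define the list, and the 10 genes of highest Pearson's r. Alternatives were DESeq2 1.42.0, other scaling, filters, thinning, replicate blocks, plain-name rows, other sets of libraries and each library left out. Some genes of the lists count toward their totals but are not reported by name here.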

Additional observations from a re-analysis of the deposited data

Results flagged for a closer look

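The EGF effect differed between BT474R and BT474, by the interaction test in edgeR, for 4 members at 12 h and 7 at 24 h. At 12 h the differences in log2 effect were 2.40 for NLRC5, 1.45 for TAP1, 0.99 for HLA-E and 0.34 for TAPBP. At 24 h they were 2.56 for NLRC5, 1.96 for TAP1, 1.90 for HLA-B, 1.17 for HLA-E, 1.10 for B2M, 0.65 for TAP2 and 0.31 for HLA-C. The HRG effect differed between the lines for TAPBP at 12 h, by 0.28.

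The EGF effect also differed between 12 h and 24 h. In BT474R it was larger at 24 h by a log2 of 1.503 for HLA-B and 0.76 for B2M, and in BT474 it was higher at 24 h by 0.26 for TAPBP. The 2 libraries per group leave no group large enough to look for a library far from the others.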

How the results depend on the processing

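Of 261 member results, 72 were called, 41 of them under every alternative and without any library, 31 were lost under at least 1, 0 reversed, and 10 uncalled results passed under at least 1. The cause of these changes was not tested, beyond the fewer counts of plain-name rows and the fewer libraries of the narrow fits. With plain-name rows alone the members called went from 4 to 2 for EGF-BT474 at 12 h, from 2 to 1 at 24 h, and from 1 to 0 for HRG-BT474R at 12 h and 24 h, the HRG difference between lines at 12 h, vehicle over time in BT474R, HRG against EGF in BT474 at 24 h and the growth of the EGF effect in BT474. With only the libraries compared, HRG against EGF in BT474R at 24 h went from 7 to 0, the HRG difference between lines at 12 h from 1 to 2, and HRG-BT474R at both times, vehicle in BT474R, HRG against EGF in BT474 at 24 h and the BT474 growth from 1 to 0. Without a filter, 2 were called for vehicle in BT474R and for the HRG difference at 12 h. Both lines in 1 fit gave 2 for vehicle in BT474R and 0 for HRG against EGF at 24 h and for the growth in BT474. Thinning gave 0 for HRG against EGF in BT474 at 24 h, and DESeq2 gave 1 in place of 0 for the HRG difference at 24 h. PSMB8 in HRG-BT474 at 24 h turned from -0.78 to 0.088 with its plain-name row.

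Leaving out each library gave 2 to 4 members called for EGF-BT474 at 12 h, 1 to 3 at 24 h, 3 to 6 for HRG against EGF in BT474R at 12 h, and 0 to 1 for HRG-BT474R at 12 h and 24 h, the HRG difference between lines at 12 h and 24 h, vehicle in BT474R, HRG against EGF in BT474 at 24 h and the growth in BT474. An arm left with 1 library is assumed to vary like the other groups.

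Nothing states that the replicate numbers pair the libraries, and over all times the pairs did not deviate together throughout: correlations of same-numbered libraries were -0.08 to 0.33 in BT474 and -0.27 to 0.45 in BT474R, over 0.1 in 9 and 14 of 45 pairs. At 24 h they were 0.17, 0.24 and 0.33 in BT474, all over 0.1, and 0.04, 0.29 and 0.45 in BT474R. With the replicate block, 9 members were called in EGF-BT474R at 24 h and 7 at 12 h, as without it, 3 in EGF-BT474 at 24 h (HLA-C added, 0.10 ± 0.04), 2 for vehicle in BT474R and 6 at T0 (5 with the block within each time point). Depth limits HLA-F, PSMB8 and PSMB9, which stood at a few counts in most BT474R groups.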

Other observations

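Other genes of antigen presentation separated the lines at T0 by more than any member. MR1, which presents microbial vitamin B metabolites to MAIT cells, was at 10.6 and 11.7 CPM in BT474 and at 0.352 and 0.186 CPM in BT474R, a log2 difference of -5.39 ± 0.30. FCGRT went the other way, from 0.577 and 0.491 CPM to 19.1 and 20.2 CPM (5.18 ± 0.16). Neither call was lost under any alternative. Of the folding genes, PDIA3 (0.87 ± 0.05), CALR (0.69 ± 0.04) and CANX (0.39 ± 0.04) were higher and TAPBPL (-0.74 ± 0.10) was lower in BT474R. Among 14 regulators, 4 were higher and 7 lower, with IRF1 at -1.37 ± 0.26 and RFX5 at -0.73 ± 0.06. Of the higher ones, IRF9 (0.31 ± 0.11) and RFXANK (0.37 ± 0.09) were not called with the replicate block within each time point or without the T0 replicate 2 of BT474R, and IRF9 also without the T0 replicate 2 of BT474. Over the 6 lists, 11 genes were higher and 18 lower of 42 tested, where 48.5% of all genes were called.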
